A study of Mus musculus with 6 samples.

Results

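Solute carriers are membrane proteins that move nutrients, metals, ions and metabolites across the plasma membrane and the membranes of organelles, without using ATP themselves. Most work as exchangers, as cotransporters driven by a sodium or proton gradient, or as uniporters, and each family is known by the substrates it accepts. In proliferating cells the glucose, glutamine and essential amino acid carriers supply fuel and building blocks, and in prostate tissue the zinc carriers and the mitochondrial citrate carrier are known for their link to zinc and citrate handling.

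The genes described here were chosen by name: every row of the deposited table with 1 gene symbol in the array's annotation that begins with Slc, a number, the letter a and a number, or with Slc35 or Slco. The rule found 176 genes among the 9490 genes tested, each with 1 row. RefSeq (assembly GRCm38.p6) lists 382 protein-coding genes under these names, and those without a row are not analysed here. Of the 176, 3 do not encode carriers and carry the name of a neighbour or partner: Slc9a3r1, Slc9a3r2 and Slc7a6os. The genes were divided by substrate into 11 sugar, 30 amino acid, 3 neurotransmitter, 20 metal, 20 inorganic ion, 27 mitochondrial, 21 nucleotide sugar, 8 carboxylate, 15 vitamin and nucleoside, and 17 organic anion, cation and lipid carriers, with 4 genes in none of these classes.

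The arrays held RNA of stem-like cancer cells grown from the prostate of the TRAMP mouse, a transgenic strain in which a prostate-directed viral oncogene gives rise to neoplasia and neuroendocrine tumours. TNE cells came from mice with neuroendocrine tumours (3 arrays, age of the mice not given in the labels), and TPIN cells from prostates with intraepithelial neoplasia of mice 10 to 11 weeks old (3 arrays). Both groups carried the transgene and were grown without serum, with EGF and FGF2. The free-text description gives intraepithelial neoplasia for all 6 samples, so the grouping rests on titles and cell type labels, and no label tells if the samples in each group are separate mice or cultures. The p-values given rest on the spread among these samples alone, and that spread may be technical.

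Values are log2 expression as deposited after RMA, and differences are TNE minus TPIN on that scale, with the moderated standard error (SE) of limma. A gene passed the test when its limma p, adjusted by Benjamini and Hochberg over all 9490 genes, was under 0.05. Array medians over all rows lay between 8.82 and 9.10 in TNE and between 8.98 and 9.03 in TPIN. TNE replicate 3 had the lowest median, and its mean over the 176 solute carrier genes, 8.52, was also the lowest of the 6 arrays (8.93 and 8.80 on TNE replicates 1 and 2, and 9.14, 8.94 and 8.89 on TPIN replicates 1 to 3). Of 16 measured fibroblast and smooth muscle markers, 12 were lower in TNE and all 16 had a negative difference. Their mean per array was 7.60, 7.48 and 8.53 in TNE and 11.34, 11.27 and 11.47 in TPIN. Only 2 of 14 epithelial markers had a row, Krt8 and Krt18, and neither passed. Of 15 listed neuroendocrine markers 6 had a row, and 4 of these (66.7%, background 10.3%) were higher in TNE: Uchl1, Syt1, Elavl4 and Snap25. Eno2 and Ncam1 did not pass, with differences of -0.79 and 0.04. For Eno2 all TPIN arrays lay above all TNE arrays. Of the 4 neuroendocrine calls, that of Uchl1 alone held without TPIN replicate 2. Syt1 and Elavl4 also lost theirs without TPIN replicate 1 or TPIN replicate 3, and Snap25 without TNE replicate 2 or TNE replicate 3. Of 3 measured endothelial markers 1 rose and 2 did not pass (33.3% called, background 20.5%). The marker that rose was Cdh5, 3.08-fold higher in TNE (limma adjusted p = 0.0151), a call kept without any 1 array. None of 3 measured immune cell markers passed, and 0 had an unadjusted p under 0.05 (38.9% of all genes). In bulk RNA, fewer cells of a type and less RNA per cell cannot be told apart, and the part of these marker differences in the results below was not tested.

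Of the 176 genes, 26 passed the test: 9 were higher and 17 lower in TNE. That is 14.8% of them, against 20.5% of all genes tested. By direction, 5.11% were higher and 9.66% lower in TNE, beside 10.3% and 10.2% of all genes. The share of solute carrier genes called was thus below the background for rises and near it for falls. TNE and TPIN arrays did not overlap for 59 genes (33.5%, background 43.8%), 20 with TNE above and 39 with TPIN above. The median difference of the 176 genes was -0.26, against -0.02 for all genes tested.

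**Figure D1:**
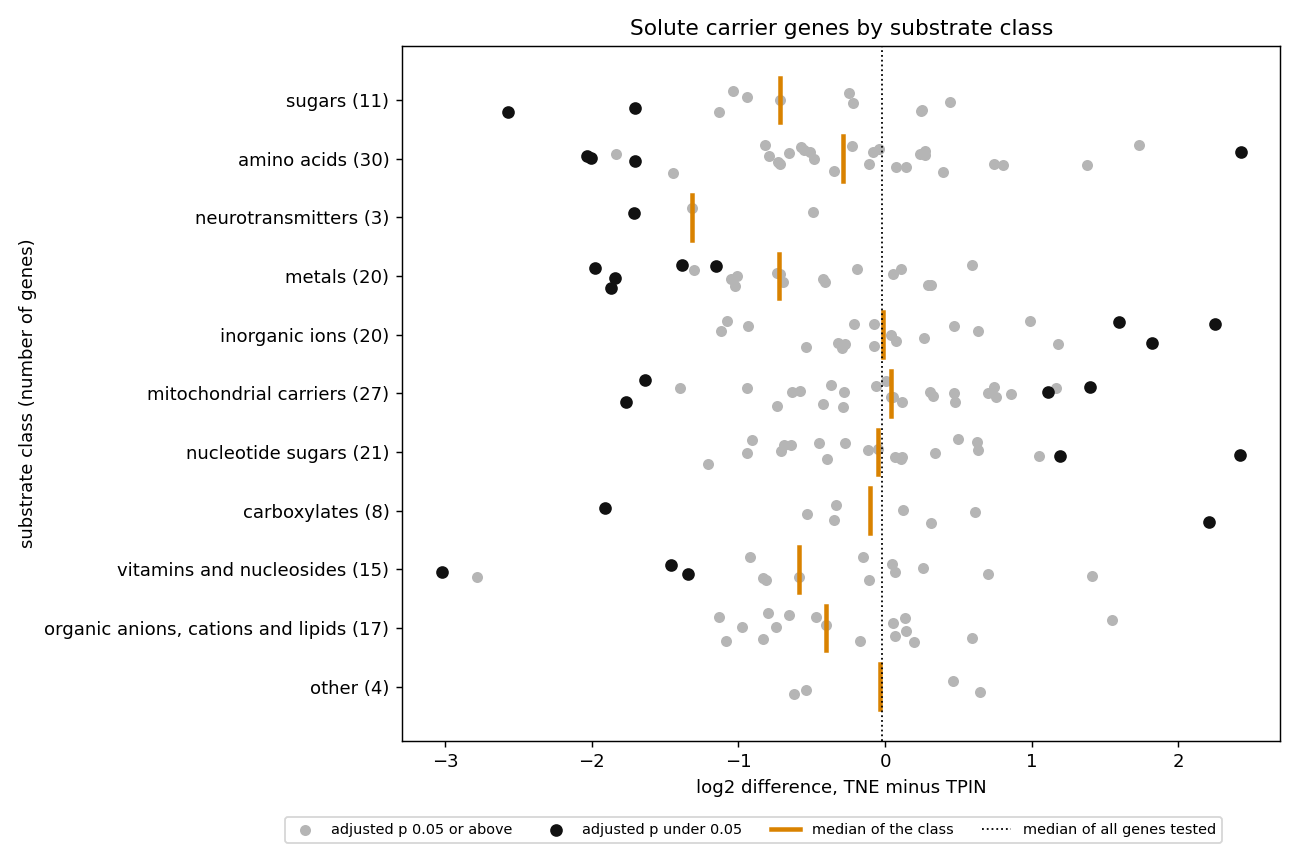
Log2 difference (TNE minus TPIN, x axis) of the 176 solute carrier genes, 1 point a gene, by substrate class (y axis, number of genes in brackets). Black points passed the test, bars mark the median of each class and the dotted line the median of all genes tested. Metals and sugars have medians of -0.72 and -0.71, and inorganic ions of -0.01.

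The call of most of these genes depended on the arrays used: 8 of the 26 passed in every fit that left out 1 array, which is 4.55% of the 176 genes beside 7.78% of all genes. Those 8 were Slc2a10, Slc7a7, Slc1a5, Slc16a4, Slc39a13 and Slc43a3, lower in TNE, and Slc4a8 and Slc12a2, higher in TNE. Slc2a10, Slc7a7 and Slc16a4 were dim, with means over the 6 arrays of 7.79, 7.52 and 6.94. They were among the dimmest 25% of genes, so the fit that left those out did not test them. The count of 26 became 10 when TNE replicate 2 was left out, 17 when TNE replicate 3 was, 10 when TPIN replicate 1 was and 12 when TPIN replicate 2 was. Over all genes, the share called was 8.77%, 14%, 9.86% and 11.7% in those 4 fits. Without TNE replicate 1 the count was 26, of which 22 were among the first 26, and 18.2% of all genes passed. Without TPIN replicate 3 it was 29, of which 20 were, and 27.4% of all genes passed. At least 4-fold differences among genes that passed were seen for 8 members, 4 in each direction, which is 4.55% of the 176 beside 8.39% of all genes (3.17% higher and 5.22% lower).

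**Figure D2:**
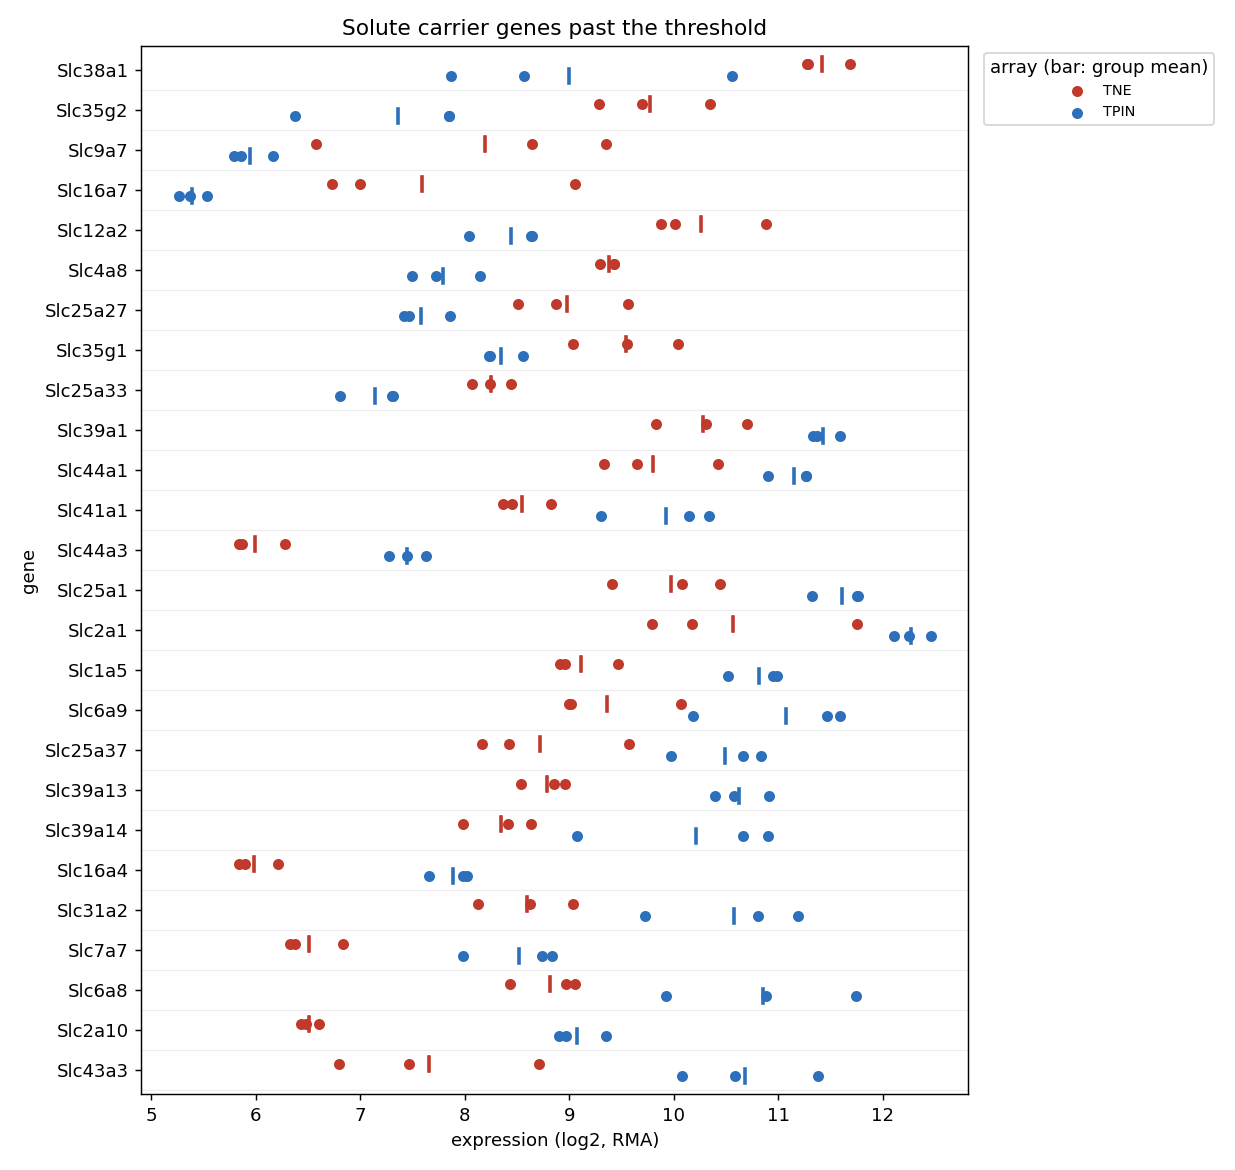
Expression (log2, x axis) on each array for the 26 solute carrier genes that passed the test (y axis), ordered by difference. Red points are the 3 TNE arrays, blue points the 3 TPIN arrays and bars the group means. No red point reaches a blue one in any row.

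Metal carriers were lower in TNE wherever they passed: 5 of 20 fell, none rose and 15 did not pass (background 10.2% lower). Of the 20 differences 15 were negative, with a median of -0.72. The 5 genes were Slc39a13, Slc31a2, Slc41a1, Slc39a14 and Slc39a1, the last outside the naming rule and chosen after its values were seen. RefSeq promoter windows (GRCm38.p6, 250 bases before to 50 after a start) were at hand for 4 of these 5, and they were searched for the core of the metal response element, the site bound by the zinc sensor MTF1, as TGCACNC or TGCGCNC on either strand. The 3 windows with a match are shown so that its place can be seen, 5′ to 3′ on the gene's strand, with the match in capitals: Slc39a13 (chr2:91070266-91070565, minus strand), Slc31a2 (chr4:62286179-62286478, plus strand) and Slc41a1 (chr1:131827762-131828061, plus strand, match read on the opposite strand).
Slc39a13: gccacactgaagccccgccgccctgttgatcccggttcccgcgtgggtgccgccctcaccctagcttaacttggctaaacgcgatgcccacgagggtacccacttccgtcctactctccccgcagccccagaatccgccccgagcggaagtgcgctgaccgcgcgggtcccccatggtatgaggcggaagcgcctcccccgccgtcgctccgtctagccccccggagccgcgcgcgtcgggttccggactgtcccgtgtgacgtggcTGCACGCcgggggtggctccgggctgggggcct
Slc31a2: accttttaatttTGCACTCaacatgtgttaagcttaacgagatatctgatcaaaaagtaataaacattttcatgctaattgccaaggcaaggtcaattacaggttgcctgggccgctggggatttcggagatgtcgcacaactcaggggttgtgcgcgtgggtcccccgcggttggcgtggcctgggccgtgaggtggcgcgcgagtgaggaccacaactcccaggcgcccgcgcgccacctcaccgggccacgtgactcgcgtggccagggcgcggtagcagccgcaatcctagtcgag
Slc41a1: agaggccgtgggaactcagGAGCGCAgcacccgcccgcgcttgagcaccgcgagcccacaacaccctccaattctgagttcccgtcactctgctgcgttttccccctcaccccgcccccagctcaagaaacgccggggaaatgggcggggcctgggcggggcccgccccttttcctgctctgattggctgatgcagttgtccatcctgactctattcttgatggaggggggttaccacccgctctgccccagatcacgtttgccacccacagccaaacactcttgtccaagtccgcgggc
Each of these windows holds 1 match, so none overlaps another. The window of Slc39a1 holds none. A match was present in 3 of 4 windows of the lowered genes and in 9 of 13 windows of the other measured metal carriers, beside 25.7% of all 32851 windows in the table and 36.6% of the 183 windows of solute carrier genes. Median GC content was 65.2%, 61.7%, 52.7% and 62.3% in the same 4 sets. A match is a run of letters in the window and says nothing of binding in these cells.

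Slc39a13 (ZIP13), a zinc transporter of intracellular vesicles whose loss causes a connective tissue disorder, had 8.96, 8.86 and 8.54 in TNE and 10.58, 10.91 and 10.39 in TPIN. All TNE arrays lay below all TPIN arrays by more than the spread within either group. The difference was -1.84 (SE 0.28, 3.59-fold lower, limma adjusted p = 0.00525), and it passed without any 1 array. Slc31a2, a relative of the high-affinity copper importer that acts in endosomes, had 9.04, 8.62 and 8.13 in TNE and 11.20, 10.80 and 9.72 in TPIN, 3.94-fold lower (limma adjusted p = 0.0193). Slc41a1, a magnesium transporter, was 2.61-fold lower, at 8.55 ± 0.24 in TNE and 9.93 ± 0.55 in TPIN (SD, n = 3 each, limma adjusted p = 0.0294). The groups did not overlap for either gene, and TPIN replicate 3 was the lowest TPIN array for both.

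Slc39a14 (ZIP14), which imports zinc, manganese and iron not bound to transferrin, had 8.41, 7.98 and 8.64 in TNE and 10.90, 10.67 and 9.07 in TPIN. It was 3.65-fold lower (limma adjusted p = 0.036). Slc39a1 (ZIP1), a zinc importer of the plasma membrane, had 10.70, 10.31 and 9.83 in TNE and 11.33, 11.38 and 11.59 in TPIN, 2.22-fold lower (limma adjusted p = 0.0363). Without TNE replicate 2, TNE replicate 3, TPIN replicate 1 or TPIN replicate 2, the number of metal carriers that fell was 1 instead of 5, and that 1 was Slc39a13. Slc39a14 also lost its call without TNE replicate 1 (limma adjusted p = 0.0614), and Slc39a1 without TPIN replicate 3 (limma adjusted p = 0.056). The differences of the 4 genes other than Slc39a13 stayed negative in every fit that left out 1 array. They lay between -2.40 and -1.67 for Slc31a2, -1.70 and -1.18 for Slc41a1, -2.44 and -1.53 for Slc39a14, and -1.36 and -0.93 for Slc39a1.

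Within the class, 3 of 6 measured Slc39 genes, which bring zinc and other metals into the cytosol, fell (background 10.2% lower). Of these 3 calls, that of Slc39a13 alone held without any 1 array. None of 7 measured Slc30 genes passed, a family known mainly, though not in every member, for taking zinc out of the cytosol. With 7 genes and a background of 20.5% called, finding none called says little of the Slc30 family. The medians of the families were -1.09 and -0.19, and the difference between the families was not tested. Slc30a1, the zinc exporter of the plasma membrane, had 8.43 ± 0.23 in TNE and 8.63 ± 0.30 in TPIN. Slc30a4, a vesicular zinc transporter, had 12.25, 10.46 and 9.46 in TNE and 11.38, 11.37 and 11.62 in TPIN, so TNE replicate 1 lay above and the other TNE arrays below all TPIN arrays. It did not pass (limma adjusted p = 0.412), but it did without TNE replicate 1, at a difference of -1.50 (limma adjusted p = 0.0386). Slc11a2 (DMT1), the importer of ferrous iron, had 10.50, 10.11 and 8.59 in TNE and 10.67, 10.32 and 10.35 in TPIN (limma adjusted p = 0.306). Slc40a1 (ferroportin), the iron exporter, had 7.33, 7.39 and 7.49 in TNE and 8.08, 7.57 and 10.46 in TPIN, where TPIN replicate 3 stood far above the others (limma adjusted p = 0.196).

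**Figure D3:**
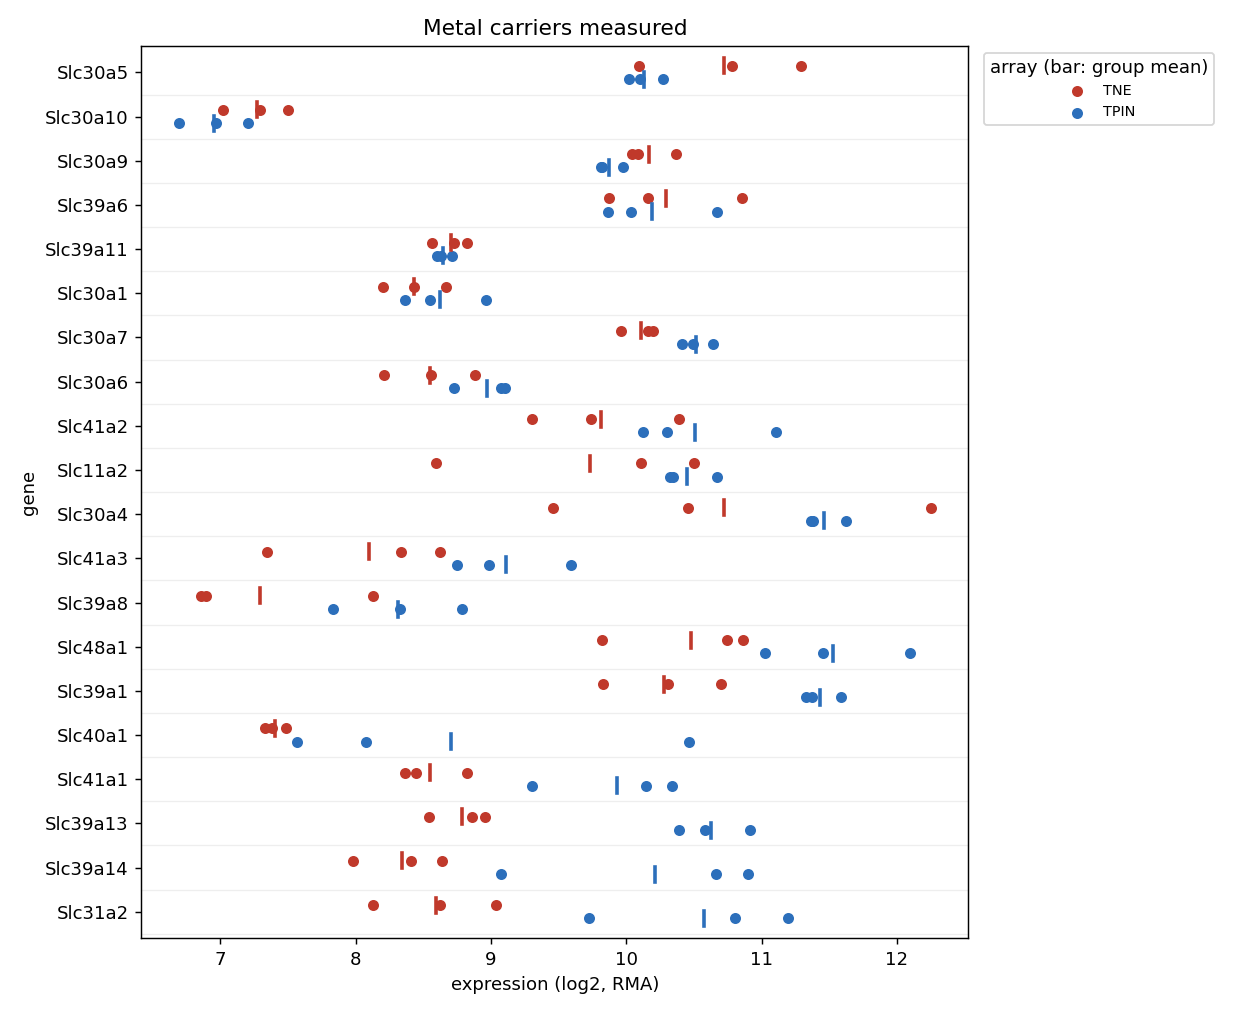
Expression (log2, x axis) on each array for the 20 metal carriers measured (y axis), ordered by difference, with TNE arrays in red, TPIN arrays in blue and group means as bars. Most rows have the TNE bar to the left of the TPIN bar, and Slc30a4 shows the widest TNE spread, 9.46 to 12.25.

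Other genes of iron, copper and zinc handling were read from a list of 30, of which 21 had a row. Of these 4 fell, 1 rose and 16 did not pass (23.8% called, background 20.5%). Tfrc, the receptor that takes up transferrin-bound iron, had 11.71, 12.00 and 10.87 in TNE and 8.23, 8.71 and 9.37 in TPIN, 6.74-fold higher (limma adjusted p = 0.00515). The 4 that fell all belong to the STEAP family, whose metalloreductase members reduce iron and copper before transport. Steap4 was 14.7-fold lower, with 7.01, 6.75 and 8.53 in TNE and 11.37, 11.91 and 10.64 in TPIN, and Steap3, the ferrireductase of endosomes, was 4.47-fold lower (limma adjusted p = 0.00373 and 0.010). Steap2 and Steap1, the last outside the naming rule, were 11.3-fold and 5.25-fold lower. Without TNE replicate 2, TPIN replicate 1 or TPIN replicate 2 the calls of Steap2 and Steap1 ended, as did that of Steap1 without TNE replicate 3.

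Among sugar carriers 2 of 11 fell in TNE, none rose and 9 did not pass (18.2% called, background 20.5%). Their median difference was -0.71, and 8 differences were negative. Slc2a10 (GLUT10), a carrier of dehydroascorbate and glucose in intracellular membranes whose loss causes arterial tortuosity, had 6.61, 6.43 and 6.48 in TNE and 9.35, 8.97 and 8.91 in TPIN. The arrays of each group were close together and the groups far apart. The difference was -2.57 (SE 0.26, 5.93-fold lower, limma adjusted p = 0.00135), the smallest p of all 176 genes, and it lay between -2.65 and -2.43 without any 1 array. Slc2a1 (GLUT1), the basal glucose importer of most cells, had 11.75, 10.17 and 9.79 in TNE and 12.46, 12.25 and 12.11 in TPIN. It was 3.26-fold lower (limma adjusted p = 0.0476). TNE replicate 1 was close to the TPIN arrays, and the call held only with all 6 arrays or without TNE replicate 1. With the arrays quantile-normalized again, Slc2a1 did not pass (difference -1.52, limma adjusted p = 0.0596). Slc2a3 (GLUT3), the high-affinity glucose importer of neurons, had 8.34, 8.40 and 10.11 in TNE and 9.69, 8.14 and 9.68 in TPIN, and did not pass (limma adjusted p = 0.805).

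Amino acid carriers gave 1 gene higher and 3 lower in TNE among 30, and 26 did not pass (13.3% called, background 20.5%). Slc1a5 (ASCT2) and Slc38a1 (SNAT1), which both carry glutamine into cells with sodium, differed in opposite directions. Slc1a5 had 9.47, 8.96 and 8.91 in TNE and 10.52, 10.99 and 10.95 in TPIN, 3.27-fold lower (difference -1.71, SE 0.29, limma adjusted p = 0.0078). Its groups did not overlap and the call held without any 1 array. Slc38a1 had 11.28, 11.29 and 11.69 in TNE and 7.87, 10.55 and 8.57 in TPIN, 5.37-fold higher (difference 2.42, SE 0.63, limma adjusted p = 0.0336). Here the TPIN arrays were spread widely, and the call ended without any 1 array other than TPIN replicate 2, with differences between 1.86 and 3.20.

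The remaining 2 that fell were Slc7a7 (y+LAT1), which exports cationic amino acids in exchange for neutral ones and sodium, and Slc6a8, the creatine importer. Slc7a7 had 6.37, 6.33 and 6.84 in TNE and 8.84, 8.74 and 7.98 in TPIN, 4.02-fold lower (limma adjusted p = 0.00687), and kept its call without any 1 array. Slc6a8 had 8.97, 9.06 and 8.43 in TNE and 11.75, 10.88 and 9.93 in TPIN, 4.09-fold lower (limma adjusted p = 0.0224). That call ended without TNE replicate 2, TNE replicate 3, TPIN replicate 1 or TPIN replicate 2, with differences between -2.50 and -1.58 over the fits that left out 1 array. The partner of Slc7a7, the heavy chain Slc3a2 (CD98), did not pass: it had 12.54, 12.45 and 11.10 in TNE and 12.86, 12.94 and 12.45 in TPIN (limma adjusted p = 0.24). Slc7a5 (LAT1), the importer of leucine and other large neutral amino acids that pairs with the same heavy chain, had 11.51, 11.93 and 10.54 in TNE and 12.09, 12.06 and 11.50 in TPIN (limma adjusted p = 0.336). For both genes TNE replicate 3 was the lowest array and the groups overlapped. Slc7a11 (xCT), the cystine importer that feeds glutathione synthesis, had 9.76, 7.67 and 7.44 in TNE and 8.07, 10.27 and 8.72 in TPIN, with arrays of both groups intermixed (limma adjusted p = 0.488). Without TPIN replicate 3, the number of amino acid carriers that fell was 5 instead of 3.

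**Figure D4:**
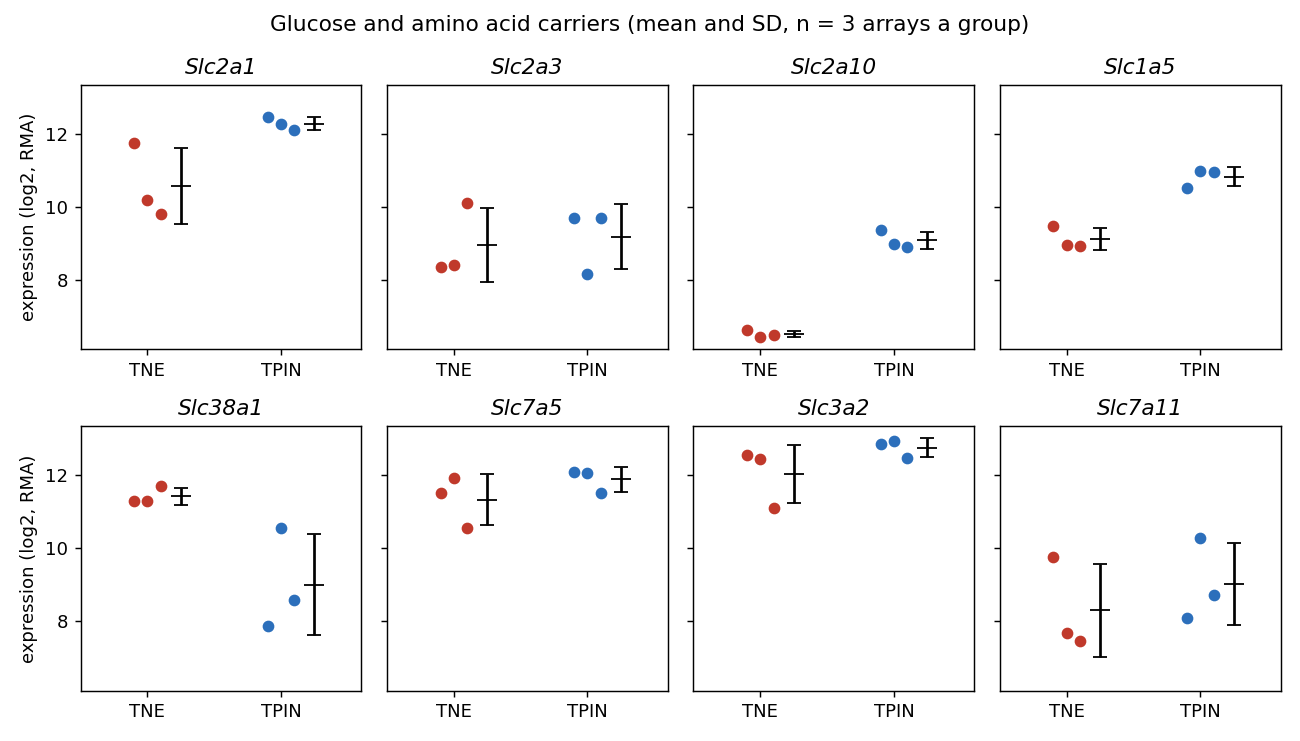
Expression (log2, y axis) of 8 glucose and amino acid carriers on the 3 TNE arrays (red, left) and the 3 TPIN arrays (blue, right), with mean and SD beside the points. The groups are apart for Slc2a1, Slc2a10, Slc1a5 and Slc38a1 and overlap for the other 4.

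A list of 37 genes of amino acid sensing and of the response to amino acid shortage was read beside these carriers. Of the 33 with a row 1 rose, 1 fell and 31 did not pass (6.06% called, background 20.5%), with a median difference of 0.01. Rragb, a Rag GTPase that signals amino acid supply at the lysosome to mTORC1, had 9.06, 8.77 and 8.84 in TNE and 5.36, 5.15 and 5.25 in TPIN, 12.4-fold higher (limma adjusted p = 0.000378). Castor1, an arginine sensor that restrains the same pathway, was 2.71-fold lower, at 7.36 ± 0.10 in TNE and 8.80 ± 0.13 in TPIN (SD, n = 3 each, limma adjusted p = 0.00824). Both kept their calls without any 1 array.

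Carriers of inorganic ions rose wherever they passed: 3 of 20 were higher in TNE, none lower and 17 did not pass (background 10.3% higher). The median difference of the class was -0.01, with 10 differences in each direction. Slc4a8, a sodium-driven chloride bicarbonate exchanger known from neurons, had 9.43, 9.29 and 9.43 in TNE and 8.14, 7.72 and 7.5 in TPIN, 3.02-fold higher (difference 1.59, SE 0.28, limma adjusted p = 0.00836). Slc12a2 (NKCC1), the sodium, potassium and chloride cotransporter that loads cells with chloride, had 10.88, 9.88 and 10.02 in TNE and 8.63, 8.04 and 8.64 in TPIN, 3.53-fold higher (difference 1.82, SE 0.36, limma adjusted p = 0.0128). Both were clearly separated and passed without any 1 array. Slc9a7, a sodium proton exchanger of the trans-Golgi network, had 6.58, 9.35 and 8.64 in TNE and 6.17, 5.79 and 5.86 in TPIN, 4.76-fold higher (limma adjusted p = 0.0454). TNE replicate 1 lay near the TPIN arrays for this gene, and the call ended without any 1 array other than TNE replicate 1, with differences between 1.67 and 3.06. Slc20a1, a phosphate importer, had 11.13 ± 0.22 in TNE and 11.35 ± 0.83 in TPIN and did not pass (SD, n = 3 each, limma adjusted p = 0.73).

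Mitochondrial carriers, all of the Slc25 family, moved in both directions: 2 of 27 rose, 2 fell and 23 did not pass (14.8% called, background 20.5%), with a median difference of 0.04. Slc25a1, the citrate carrier that exports citrate for lipid synthesis, had 10.44, 10.08 and 9.41 in TNE and 11.75, 11.76 and 11.33 in TPIN, 3.11-fold lower (limma adjusted p = 0.0153). Slc25a37 (mitoferrin-1), which brings iron into mitochondria, had 9.57, 8.17 and 8.42 in TNE and 10.84, 10.66 and 9.97 in TPIN, 3.41-fold lower (limma adjusted p = 0.0279). The groups did not overlap for either gene. Slc25a27, an uncoupling protein of the brain, and Slc25a33, a carrier of pyrimidine nucleotides, were 2.63-fold and 2.16-fold higher (limma adjusted p = 0.0272 and 0.0299). Slc25a27 had 8.51, 8.88 and 9.56 in TNE and 7.47, 7.42 and 7.86 in TPIN, and Slc25a33 had 8.44, 8.24 and 8.07 in TNE and 7.30, 6.81 and 7.31 in TPIN. None of the 4 calls held without TNE replicate 2, TPIN replicate 1 or TPIN replicate 2. Slc25a37 and Slc25a27 also lost theirs without TNE replicate 3, and Slc25a33 without TNE replicate 1. The ADP/ATP carriers Slc25a4 and Slc25a5 did not pass, with differences of 0.76 and 0.11. Slc25a4, the form of heart and muscle, had 12.85, 13.02 and 12.80 in TNE and 11.93, 11.76 and 12.69 in TPIN (limma adjusted p = 0.122), and without TPIN replicate 3 it passed at a difference of 1.04.

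Among carboxylate carriers, all of the Slc16 family, 1 of 8 rose, 1 fell and 6 did not pass (background 10.3% higher and 10.2% lower). Slc16a4, a member whose substrate is not settled, had 5.89, 6.21 and 5.84 in TNE and 8.02, 7.66 and 7.99 in TPIN, 3.75-fold lower (difference -1.91, SE 0.27, limma adjusted p = 0.00396), a call kept without any 1 array. Slc16a7 (MCT2), a high-affinity importer of pyruvate and lactate, had 7.0, 6.73 and 9.06 in TNE and 5.53, 5.37 and 5.26 in TPIN, 4.62-fold higher (limma adjusted p = 0.0352). TNE replicate 3 was the highest array by far, and the call ended without any 1 of the TPIN arrays, with differences between 1.48 and 2.64 over the fits that left out 1 array. Slc16a1 (MCT1) and Slc16a3 (MCT4), the common lactate carriers of proliferating and glycolytic cells, did not pass. Slc16a1 had 9.88 ± 0.46 in TNE and 10.42 ± 0.69 in TPIN (limma adjusted p = 0.369), and Slc16a3 had 9.90 ± 0.28 in TNE and 10.23 ± 0.56 in TPIN (SD, n = 3 each, limma adjusted p = 0.503).

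Carriers of vitamins, choline, nucleosides and bases included the solute carrier gene with the most negative difference. In this class 3 of 15 fell, none rose and 12 did not pass, with a median difference of -0.59. The share of the class called was near the background of 20.5%. The share lower was above the background of 10.2%, on 3 genes. Slc43a3, a carrier of purine bases, had 7.47, 6.80 and 8.71 in TNE and 10.59, 11.38 and 10.08 in TPIN, 8.12-fold lower (difference -3.02, SE 0.54, limma adjusted p = 0.00925). Every TNE array lay more than 1 log2 unit below every TPIN array, and the call held without any 1 array. Slc44a1, a choline carrier of the plasma membrane, and its relative Slc44a3 were 2.54-fold and 2.75-fold lower (limma adjusted p = 0.0321 and 0.0103). Slc44a1 had 10.42, 9.65 and 9.33 in TNE and 11.27, 11.27 and 10.91 in TPIN, and Slc44a3 had 5.87, 5.84 and 6.28 in TNE and 7.45, 7.63 and 7.28 in TPIN. Both calls ended without TNE replicate 2, and that of Slc44a1 also without TNE replicate 3, TPIN replicate 1 or TPIN replicate 2. Slc29a1 (ENT1), the common nucleoside importer, had 11.59, 11.45 and 11.25 in TNE and 10.60, 8.20 and 11.26 in TPIN, with TPIN replicate 2 far below the rest, and did not pass (limma adjusted p = 0.18). With TNE replicate 2 left out 1 gene of the class fell, and with TPIN replicate 3 left out 5 did.

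Of the 21 carriers of nucleotide sugars and related orphan members, 2 rose, none fell and 19 did not pass (9.52% called, background 20.5%). Both that rose belong to the Slc35g group, whose substrates are not known. Slc35g2 had 9.29, 10.35 and 9.69 in TNE and 7.85, 7.85 and 6.38 in TPIN, 5.34-fold higher (difference 2.42, SE 0.48, limma adjusted p = 0.0132), and lost its call only without TNE replicate 2. Slc35g1 had 10.04, 9.55 and 9.03 in TNE and 8.56, 8.25 and 8.23 in TPIN, 2.29-fold higher (limma adjusted p = 0.0393). Its call ended without any 1 array other than TNE replicate 3, with differences between 0.95 and 1.45. Slc35b1, which brings ATP into the endoplasmic reticulum, did not pass (difference -0.12, and 0.02 with the arrays quantile-normalized again).

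The neurotransmitter class held 3 measured genes, of which 1 fell and 2 did not pass (33.3% called, background 20.5%). The gene that fell was Slc6a9 (GlyT1), a glycine importer. It had 10.07, 9.0 and 9.02 in TNE and 11.47, 11.59 and 10.18 in TPIN, 3.28-fold lower (limma adjusted p = 0.0409). TNE replicate 1 and TPIN replicate 3 were close together, and the call ended without TNE replicate 2, TNE replicate 3, TPIN replicate 1 or TPIN replicate 2, with differences between -2.16 and -1.46. Slc17a6, described further on, and Slc17a9, a vesicular nucleotide transporter, did not pass.

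None of the 17 carriers of organic anions, cations and lipids passed, with an unadjusted limma p under 0.05 for 2 of them (38.9% of all genes), and their median difference was -0.40. The carrier Slco3a1 had 10.38, 10.01 and 8.12 in TNE and 11.08, 11.33 and 9.35 in TPIN, and Slco2a1, the prostaglandin transporter, had 7.49, 10.06 and 8.24 in TNE and 9.70, 7.93 and 10.38 in TPIN. Arrays of both groups were intermixed for these genes.

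Some members differed more between arrays of the same kind than between the groups. A range over 2 log2 units within TNE was found for 19 genes (10.8%, against 7.66% of all genes) and within TPIN for 18 (10.2%, against 6.69%). The examples that follow were chosen after their values were seen. Slc14a1, the urea transporter of red cells and vessels, had 11.99, 12.77 and 7.41 in TNE and 7.38, 9.32 and 10.82 in TPIN. Slc5a7, which imports choline for acetylcholine synthesis, had 6.21, 6.0 and 6.30 in TNE and 9.08, 6.26 and 11.53 in TPIN. Slc17a6 (VGLUT2), which loads vesicles with glutamate, had 5.62, 5.93 and 5.6 in TNE and 5.95, 5.61 and 9.56 in TPIN. The groups overlapped for all 3 genes, none of which passed, and TPIN replicate 3 was the highest TPIN array in each.

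Transporters outside the solute carrier names were set beside them by count. Of 23 ABC transporters, which use ATP to pump substrates, 1 fell and 22 did not pass (4.35% called, background 20.5%). That 1 was Abcd2, a peroxisomal fatty acid transporter, 3.52-fold lower (limma adjusted p = 0.0348), and its call ended without any 1 array other than TPIN replicate 2. Of 14 P-type ATPases and sodium pump subunits 2 rose and 2 fell (28.6% called, background 20.5%), and all 4 were lipid flippases or their relatives. Atp8a1 had 9.30, 8.79 and 9.70 in TNE and 6.71, 6.42 and 6.31 in TPIN, 6.88-fold higher (limma adjusted p = 0.002). Atp8b1 had 8.0, 6.26 and 7.69 in TNE and 11.41, 10.62 and 11.04 in TPIN, 13.1-fold lower (limma adjusted p = 0.00316). Atp10a was 5.75-fold lower and Atp9a 3.92-fold higher, the last a call that ended without any 1 array other than TNE replicate 1. It ended as well when each array was centred on its median (difference 1.99, limma adjusted p = 0.0503).

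A list of 42 carriers of solute carrier type that bear other names had 22 members with a row. Of these 2 rose, 2 fell and 18 did not pass (18.2% called, background 20.5%). Flvcr1, an exporter of heme, and Sv2a, a protein of synaptic vesicles, were 2.42-fold and 2.99-fold higher in TNE. Pqlc3 and Unc93b1, a chaperone of endosomal Toll-like receptors, were 4.77-fold and 2.93-fold lower. Limma adjusted p lay between 0.0209 and 0.0439 for these 4, and each call ended without TNE replicate 2, TPIN replicate 1 or TPIN replicate 2. Flvcr1 and Unc93b1 also lost theirs without TNE replicate 1, Sv2a without TNE replicate 3, and Sv2a and Unc93b1 without TPIN replicate 3. Of 7 measured accessory subunits and partners of carriers none passed in limma, with an unadjusted p under 0.05 for 0 of them, against 38.9% of all genes.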

How the data were processed

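RNA of 3 TNE and 3 TPIN samples was hybridised to expression arrays. The deposited values are log2 expression after RMA, per the submitters' processing notes, and how the authors chose the rows was not given in the sources used here. Of 10361 rows, 9496 carried 1 gene symbol, 374 several and 491 none. Rows with 1 symbol were used, and the row of highest mean for the 6 genes with several, which left 9490 genes. Groups were compared with limma (version 3.58.1, R 4.3.3; lmFit and eBayes, no covariates, Benjamini-Hochberg adjustment), tested on simulated data. The number of arrays, 3 a group, limits the precision. Genes named were those of smallest p among the called in each class and direction (up to 4), the gene of highest mean in each class, and a set chosen by role; from each other list, up to 4 called genes of smallest p. The members and lists were chosen with earlier results of these data known. Alternatives covered normalization, dim genes, moderation, array weights, row choice and leaving out each array. Promoter windows came from RefSeq (GRCm38.p6). Levels of different genes were ranked only to choose the gene of highest mean in each class to name and to find the dimmest 25% of genes.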

Additional observations from a re-analysis of the deposited data

How the results depend on the processing

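No gene that passed the test and is named changed direction under any of these alternatives, while some named genes that did not pass changed sign. The median difference of the 176 genes lay between -0.306 and -0.104 without any 1 array. With array weights, 23 genes were higher and 32 lower in TNE, where 45.0% of all genes passed. In that fit amino acid carriers gave 4 higher and 6 lower, inorganic ions 5 and 2, organic anions, cations and lipids 2 and 1, and vitamins and nucleosides 1 and 6, while mitochondrial carriers gave 6 higher, nucleotide sugars 3 lower and the unclassed genes 1 higher. Quantile-normalized again, amino acid carriers gave 2 higher, nucleotide sugars 1 lower and sugars 1 lower, and with each array centred on its median nucleotide sugars gave 1 lower. With the dimmest 25% of genes left out, carboxylates gave 0 higher and 0 lower, mitochondrial carriers 1 higher and sugars 1 lower. The called members left out as dim were Slc16a7, Slc16a4, Slc25a33, Slc2a10, Slc7a7, Slc9a7 and Slc44a3. All 19 called members that remained kept their calls in that fit. Without 1 array, the genes higher numbered 3 to 9 and the genes lower 6 to 21. By class, those ranges were 0 to 1 higher and 2 to 5 lower for amino acids, 0 to 1 higher and 1 to 1 lower for carboxylates, 2 to 3 higher and 0 to 1 lower for inorganic ions, 1 to 6 lower for metals, 0 to 3 higher and 0 to 2 lower for mitochondrial carriers, 0 to 1 lower for neurotransmitters, 0 to 2 higher and 0 to 1 lower for nucleotide sugars, 0 to 1 higher for organic anions, 1 to 2 lower for sugars and 1 to 5 lower for vitamins and nucleosides. The cause of these changes was not tested. No paired analysis was possible because the replicate numbers follow the order of deposit and link no samples across groups.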
